A study of Mus musculus with 8 samples.

Results

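Skeletal muscle genes encode the contractile filaments of the fibre, the channels that couple nerve input to contraction and the transcription factors that set up the lineage. The group described here was given as 38 gene symbols, and a gene was a member when its symbol stood in the identifier column of the deposited table. In all, 36 of 38 were found, among 23337 genes in the table. Mymk, which encodes the fusion protein myomaker, and Klhl41, which encodes a kelch protein of the sarcomere, were not found under these symbols. The table holds rows named Tmem8c and Kbtbd10, which RefSeq lists as older symbols of Mymk and Klhl41, and these are described apart from the members.

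RNA was sequenced from kidneys dissected from mouse embryos at E13.5, where the number counts days of embryonic development. The 4 mutant libraries came from Foxd1Cre;Smo(flox/-) embryos. These carried Cre recombinase driven by Foxd1, a gene of renal stromal progenitors, with 1 floxed and 1 null copy of Smo. The label does not say how Cre was inserted. The 4 control libraries came from Smo(flox/+) embryos, with 1 floxed and 1 wild type copy and no Cre named in the label. All embryos were of a mixed C57BL/6 background and carried at least 1 floxed allele. Mutants lacked 1 copy of Smo, the gene of the hedgehog signal transducer Smoothened, in every cell. No label says that samples numbered 1 to 4 came from separate animals or litters, and the p-values then describe the spread among the sequenced samples alone, which may be technical.

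Libraries held 10288191 to 13494079 reads in genes. Levels below are read counts divided by the authors' size factor per library, called normalised counts. A single read was worth 0.851 to 1.12 normalised counts, and 3 reads, the upper limit that a count of 0 allows, 2.55 to 3.36. Smo stood at 509 to 553 in mutants and at 2152 to 2294 in controls, so no library went against its label. Kidney genes chosen outside the naming rule were present in every library, with Wt1 at 1993 to 2235 in mutants and 1867 to 2034 in controls, and Six2 at 1944 to 2255 in mutants and 1500 to 1893 in controls.

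In the embryo, myogenic cells express Pax3 and Pax7, then the myogenic regulators Myf5 and Myod1, and Myog as they differentiate and fuse. Young fibres build sarcomeres with the embryonic and perinatal myosin heavy chains encoded by Myh3 and Myh8, and share cardiac isoforms such as Actc1, Tnnt2 and Myl4 with the developing heart. Many promoters of this programme hold E-boxes, the short sites that MyoD family proteins bind. The kidney forms no skeletal muscle.

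Promoters of 4 members whose levels differed widely between libraries are given here, from RefSeq on GRCm38.p6, as windows from 250 bases before to 50 bases after the transcript start, 5′ to 3′ on the strand of the gene. Capitals mark the E-box motif CANNTG. The windows lie at chr11:67078050-67078349 on the plus strand for Myh3, chr7:127211358-127211657 on the plus strand for Mylpf, chr1:134289754-134290053 on the plus strand for Myog and chr2:73580289-73580588 on the minus strand for Chrna1.
Myh3: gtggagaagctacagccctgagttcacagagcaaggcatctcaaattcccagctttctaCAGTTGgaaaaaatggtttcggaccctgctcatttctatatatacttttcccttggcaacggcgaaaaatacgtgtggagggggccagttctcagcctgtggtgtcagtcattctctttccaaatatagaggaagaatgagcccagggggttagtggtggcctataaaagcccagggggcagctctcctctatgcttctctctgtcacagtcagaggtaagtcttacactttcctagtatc
Mylpf: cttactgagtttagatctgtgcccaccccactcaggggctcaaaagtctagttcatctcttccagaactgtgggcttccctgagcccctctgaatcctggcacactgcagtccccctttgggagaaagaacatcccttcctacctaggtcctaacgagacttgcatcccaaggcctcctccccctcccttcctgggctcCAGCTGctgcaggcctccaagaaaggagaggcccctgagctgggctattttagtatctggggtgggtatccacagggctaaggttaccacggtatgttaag
Myog: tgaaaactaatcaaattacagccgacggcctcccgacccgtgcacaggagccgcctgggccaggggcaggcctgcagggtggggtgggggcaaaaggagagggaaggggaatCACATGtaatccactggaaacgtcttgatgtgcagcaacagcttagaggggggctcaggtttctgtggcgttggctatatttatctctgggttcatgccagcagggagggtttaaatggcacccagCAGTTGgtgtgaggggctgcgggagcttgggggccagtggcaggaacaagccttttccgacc
Chrna1: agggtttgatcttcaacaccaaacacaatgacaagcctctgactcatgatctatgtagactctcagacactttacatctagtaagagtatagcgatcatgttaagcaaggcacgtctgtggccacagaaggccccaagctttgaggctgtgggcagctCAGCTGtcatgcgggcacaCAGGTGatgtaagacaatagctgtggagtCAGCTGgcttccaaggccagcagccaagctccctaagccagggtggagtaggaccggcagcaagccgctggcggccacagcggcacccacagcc

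Of the 38 symbols, 30 matched at least 1 promoter window, with 35 windows in all. CANNTG, which reads the same on both strands, was in 82.9% of these windows and in 72.3% of all 32851 windows of the table. CAGCTG, a form of CANNTG and also the same on both strands, was in 12 of the 35 windows (34.3%), against 16.3% of all windows. The CArG box, the site of serum response factor, was in 2 windows, those of Acta1 and Actc1, and in 1.63% of all windows. These matches describe the letters of the windows only.

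Summed over the 36 genes, the level was 1155 in mutant 1, 4298 in mutant 2, 888 in mutant 3 and 1278 in mutant 4, against 1935 in control 1, 7162 in control 2, 1403 in control 3 and 991 in control 4. The high libraries were thus mutant 2 among mutants and control 2 among controls, and the ranges of the groups overlapped. As a share of reads in genes, the members took 0.0374% in mutant 2 (95% Wilson interval 0.0363% to 0.0386%) and 0.0625% in control 2 (0.0611% to 0.0640%). In the other libraries the share lay between 0.00771% and 0.0111% in mutants and between 0.00863% and 0.0169% in controls. Such intervals cover counting error only. Fewer muscle cells and less muscle RNA per cell cannot be told apart in bulk RNA.

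**Figure D1:**
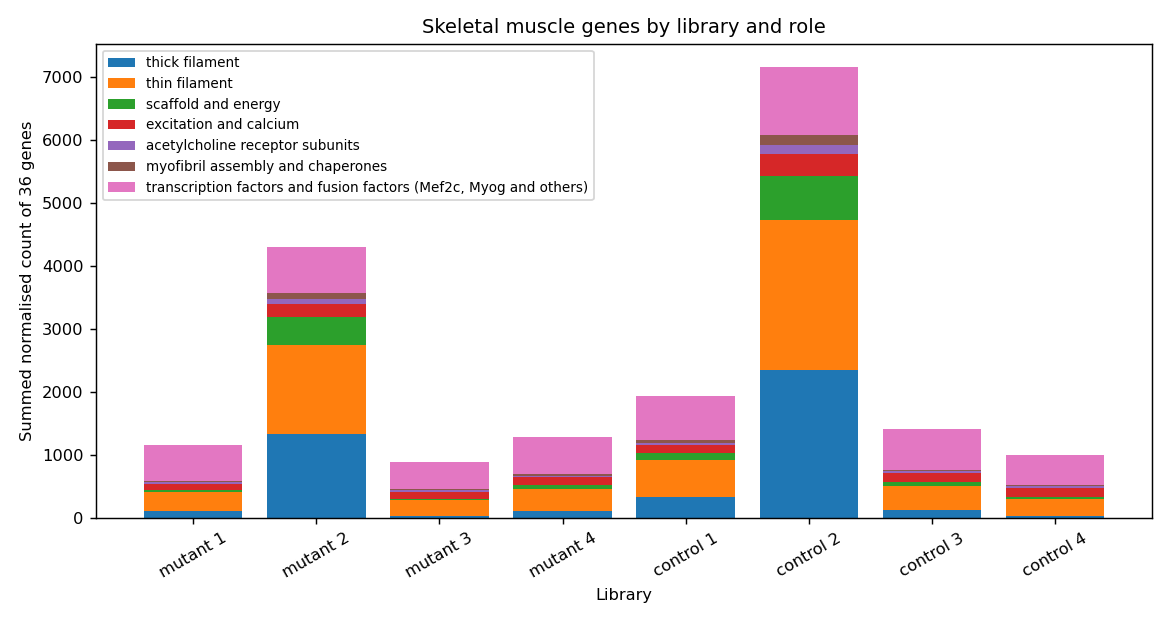
Summed normalised count of the 36 skeletal muscle genes found in the table (vertical axis) in each of the 4 mutant and 4 control libraries, with the parts of each bar coloured by role. Mutant 2 reached 4298 and control 2 reached 7162, while the other libraries lay between 888 and 1935, where transcription factors, mostly Mef2c, made up the largest part.

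Mef2c, a transcription factor gene of muscle, vessels and neural crest, was the member with the highest level, and it took much of the sum in libraries with little muscle RNA. Without it the sums were 602, 3706, 467 and 726 in mutants 1 to 4, against 1275, 6361, 792 and 534 in controls 1 to 4. Means of these sums were 1375 ± 1557 in mutants and 2240 ± 2764 in controls (SD, n = 4 each), so the spread within each group exceeded its mean. Leaving out 11 members that are well known outside skeletal muscle, among them Mef2c and the isoforms shared with heart, sums were 354 to 2407 in mutants and 391 to 3972 in controls, again highest in mutant 2 and control 2.

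For most members the libraries numbered 2 held the highest levels. Control 2 was the highest library for 34 of the 36 members, and for 28 of them mutant 2 came next. For 25 members control 1 was the third after control 2 and mutant 2. Among the 27 tested members these counts were 26, 24 and 21. In all tested genes, control 2 was the highest library for 14.8% and was followed by mutant 2 for 2.15%. The order control 2, mutant 2, control 1 was found in 0.738% of them. Some members passed the filter only through control 2 and mutant 2, which favours this order. The members share their libraries, so these counts are not independent observations. Chrnd and Pax3 were the 2 members highest in mutant 2.

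Thick filament genes ranged widely. Myh3, which encodes embryonic myosin heavy chain, stood at 30.6, 694, 3.36 and 49.4 in mutants 1 to 4, against 169, 1105, 59.1 and 5.64 in controls 1 to 4. Mutant 2 and control 2 lay far above the rest, while mutant 3, with 3 reads, and control 4 were lowest. Control 2 exceeded mutant 3 by 329-fold, with a 95% counting interval of 112 to 1597. Mylpf, the fast regulatory light chain gene, had 40.1, 249, 10.1 and 21.5 in mutants 1 to 4, and 62.9, 486, 28.1 and 11.3 in controls 1 to 4. Myl1, the fast essential light chain gene, had 9.55, 109, 3.36 and 4.30 in mutants 1 to 4, and 34.0, 241, 9.69 and 1.88 in controls 1 to 4. In both groups each of these genes was highest in the library numbered 2. Perinatal Myh8, slow Myh7 and the embryonic and atrial light chain gene Myl4 reached 82.0 to 114 in mutant 2 and 159 to 186 in control 2, and at most 31.5 in any other library. Exons of Myh7 overlap the antisense gene Mhrt and others. The deposited counts carry the label Unstr, which may mean that strand was ignored, though the sources used here do not spell this out. Reads of Myh7 and its antisense partners therefore cannot be told apart.

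**Figure D2:**
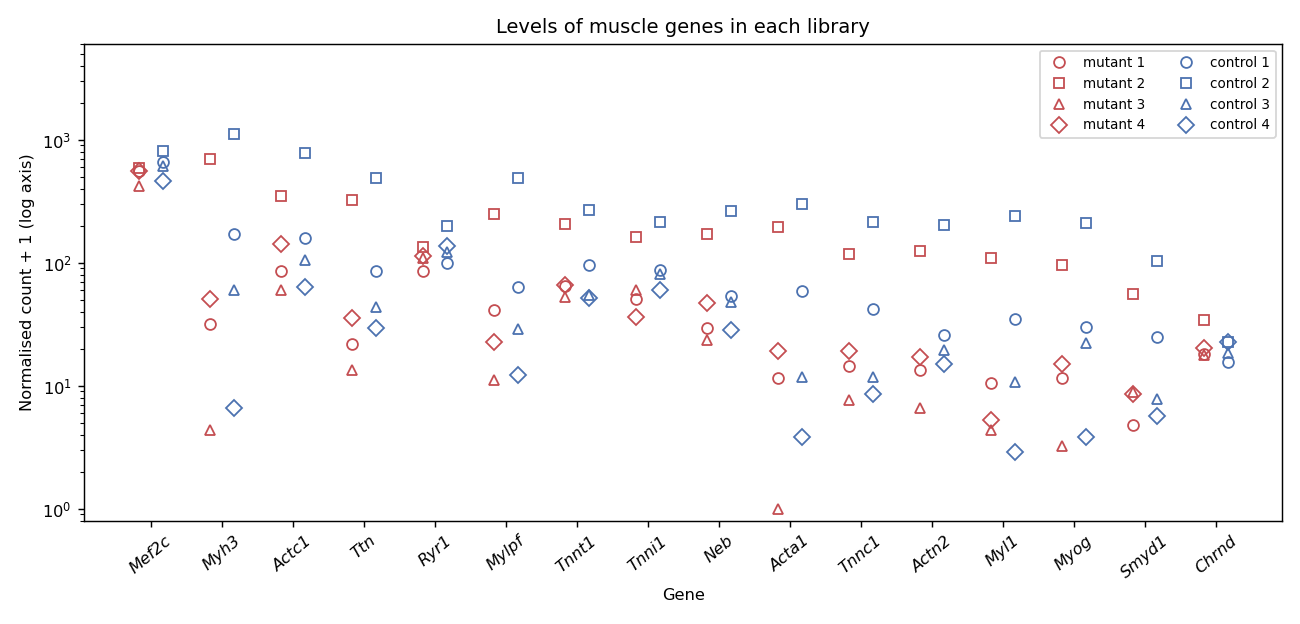
Normalised count + 1 on a log axis for the 13 muscle genes whose mean level reached 50 and for Myog, Smyd1 and Chrnd, with mutants in red left of controls in blue and a marker shape for each sample number. Squares, the libraries numbered 2, stand apart for Myh3 (694 in mutant 2 and 1105 in control 2) and most others, and lie among or near the rest for Mef2c, Ryr1 and Chrnd.

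Among thin filament genes the actins differed in their lowest values. Acta1, the skeletal alpha-actin gene, stood at 10.5, 195, 0 and 18.3 in mutants 1 to 4, against 57.8, 297, 10.7 and 2.82 in controls 1 to 4. With no read in mutant 3, taken at the limit of 3 reads, Acta1 was at least 88.3-fold higher in control 2. Actc1, the cardiac alpha-actin gene that embryonic skeletal muscle also uses, had 84.0, 347, 59.4 and 140 in mutants 1 to 4, against 157, 784, 105 and 62.1 in controls 1 to 4. So Actc1 kept a level near 60 in the libraries where Acta1 was close to 0. Actins are near-identical in sequence, and the sources used here do not say how reads that match several actin genes were counted.

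Troponin genes showed the same split. Tnnc1, encoding slow and cardiac troponin C, had 13.4, 116, 6.72 and 18.3 in mutants 1 to 4, against 40.8, 215, 10.7 and 7.52 in controls 1 to 4. Tnni1, encoding slow troponin I, had 49.7, 160, 59.4 and 35.4 in mutants 1 to 4, against 85.9, 215, 80.4 and 59.2 in controls 1 to 4. Tnnt1, encoding slow troponin T, had 64.0, 204, 51.5 and 64.4 in mutants 1 to 4, and 95.3, 266, 53.3 and 50.8 in controls 1 to 4. Control 2 exceeded the lowest library by 32.0-fold for Tnnc1 but by 6.07-fold for Tnni1 and 5.23-fold for Tnnt1. Fast Tnnt3 ranged from 20.4 to 66.0 in mutants and from 33.8 to 106 in controls, and cardiac Tnnt2 from 7.52 to 84.1 in mutants and from 9.40 to 141 in controls. Fast Tnnc2 and Tnni2 were lower, at no more than 43.7 in mutants and 71.3 in controls. Of the 800 exonic bases of Tnnc2, 592 overlap exons of Ube2c on the opposite strand, so the limit given for Myh7 holds here too.

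Genes of the sarcomere's scaffold were likewise highest in mutant 2 and control 2 within their groups. Ttn, which encodes titin, had 21.0, 324, 12.3 and 34.4 in mutants 1 to 4, against 85.1, 491, 42.6 and 28.2 in controls 1 to 4. Neb, which encodes nebulin along the thin filament, had 28.6, 171, 22.4 and 46.2 in mutants 1 to 4, against 52.7, 263, 46.5 and 27.3 in controls 1 to 4. Actn2, the Z-disc alpha-actinin gene, had 12.4, 125, 5.60 and 16.1 in mutants 1 to 4, against 24.7, 201, 18.4 and 14.1 in controls 1 to 4. For each of these genes mutant 2 and control 2 were the 2 highest libraries. Ckm, the muscle creatine kinase gene of mature fibres, reached only 2.13 in mutants and 7.24 in controls. Smyd1, a methyltransferase gene needed for myofibril assembly, had 3.82, 54.3, 7.84 and 7.52 in mutants 1 to 4, against 23.8, 102, 6.78 and 4.70 in controls 1 to 4. The myosin chaperone gene Unc45b spanned 8.96 to 33.0 in mutants and 8.46 to 55.8 in controls, and the small heat shock gene Hspb3 did not exceed 4.13 in any library.

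Genes of excitation and calcium handling were mixed. Ryr1, the calcium release channel gene of skeletal muscle, stood at 84.0, 132, 109 and 113 in mutants 1 to 4, against 97.8, 199.5, 121 and 135 in controls 1 to 4. It differed by 2.37-fold between control 2 and its lowest library, mutant 1. Control 4, with the second lowest Myh3 level, had the second highest level of Ryr1. Casq2, encoding calsequestrin 2, ranged from 5.60 to 50.05 in mutants and from 5.64 to 108 in controls, highest in mutant 2 and control 2. Cacna1s, the voltage sensor channel gene that pairs with Ryr1 in fibres, was read in mutant 2 alone among mutants, at 16.0, and at 0.94 to 37.2 in controls. Cav3, encoding muscle caveolin, did not exceed 9.30.

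Acetylcholine receptor subunits did not move together. Chrna1, the alpha subunit gene, had 5.73, 35.1, 7.84 and 4.30 in mutants 1 to 4, against 12.8, 75.5, 6.78 and 6.58 in controls 1 to 4. Chrnd, the delta subunit gene, had 17.2, 33.0, 16.8 and 19.3 in mutants 1 to 4, against 14.5, 21.7, 17.4 and 21.6 in controls 1 to 4. Control 2, the highest library for Chrna1, was level with control 4 for Chrnd. The fetal gamma subunit gene Chrng reached 17.04 in mutant 2 and 31.0 in control 2, with at most 10.2 elsewhere.

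Among the myogenic regulators, Myog and Myod1 exceeded Pax7 clearly in mutant 2 and control 2, while in mutant 3 and control 4 all 3 were at 3.76 or less. Myog, the regulator of terminal differentiation, had 10.5, 94.8, 2.24 and 14.0 in mutants 1 to 4, against 28.9, 208, 21.3 and 2.82 in controls 1 to 4, again highest in mutant 2 and control 2. Myod1, the lineage regulator, reached 37.3 in mutant 2 and 62.0 in control 2, and at most 11.1 elsewhere. Pax7 of muscle progenitors did not exceed 3.19 in mutants and 10.3 in controls. Pax3, Myf5 and Myf6 reached at most 3.19 in mutants and 5.17 in controls, 5 reads or fewer in any library. Mef2c had 554, 592, 421 and 552 in mutants 1 to 4, against 660, 801, 611 and 457 in controls 1 to 4, and control 2 exceeded mutant 3 by 1.90-fold.

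Levels of different genes can be set side by side per kilobase of exon, with exon lengths from GENCODE vM21 on GRCm38. On this scale Mylpf stood at 235 in mutant 2 and 457 in control 2, and Actc1 at 215 in mutant 2 and 484 in control 2. Acta1 followed with 127 in mutant 2 and 193 in control 2, Myh3 with 115 in mutant 2 and 182 in control 2, and Tnnc1 with 112 in mutant 2 and 207 in control 2. The myosin heavy chain genes were thus ordered Myh3, then Myh7 (13.2 in mutant 2 and 18.5 in control 2), then Myh8 (7.33 in mutant 2 and 14.0 in control 2). The order of Myh7 and Myh8 depends in part on the lengths used, 8616 and 11772 bases. Before division by length, Myh8 was above Myh7 in control 2 (164 against 159) and below it in mutant 2 (86.3 against 114). Myog, at 63.4 in mutant 2 and 139 in control 2, was above Myod1, at 20.03 in mutant 2 and 33.3 in control 2. Exon lengths count every annotated isoform, so genes with long alternative exons are understated.

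Member levels in mutant 2 were also set against those in control 2, gene by gene. The ratio of the level in mutant 2 to that in control 2 was 0.583 for the members summed without Mef2c (95% counting interval 0.559 to 0.608). Among the 27 members with a mean of at least 10, the intervals of 20 held this value, among them Myh3 (0.628, 0.569 to 0.693), Acta1 (0.657), Ttn (0.659) and Myog (0.456, 0.351 to 0.588). Actc1 (0.443, 0.388 to 0.505), Myl1 (0.451) and Myl4 (0.441) lay below it. Tnni1 (0.743), Tnnt1 (0.770), Mef2c (0.739) and Chrnd (1.52, 0.846 to 2.78) lay above it. The ratio compares 2 libraries and not the genotypes.

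**Figure D3:**
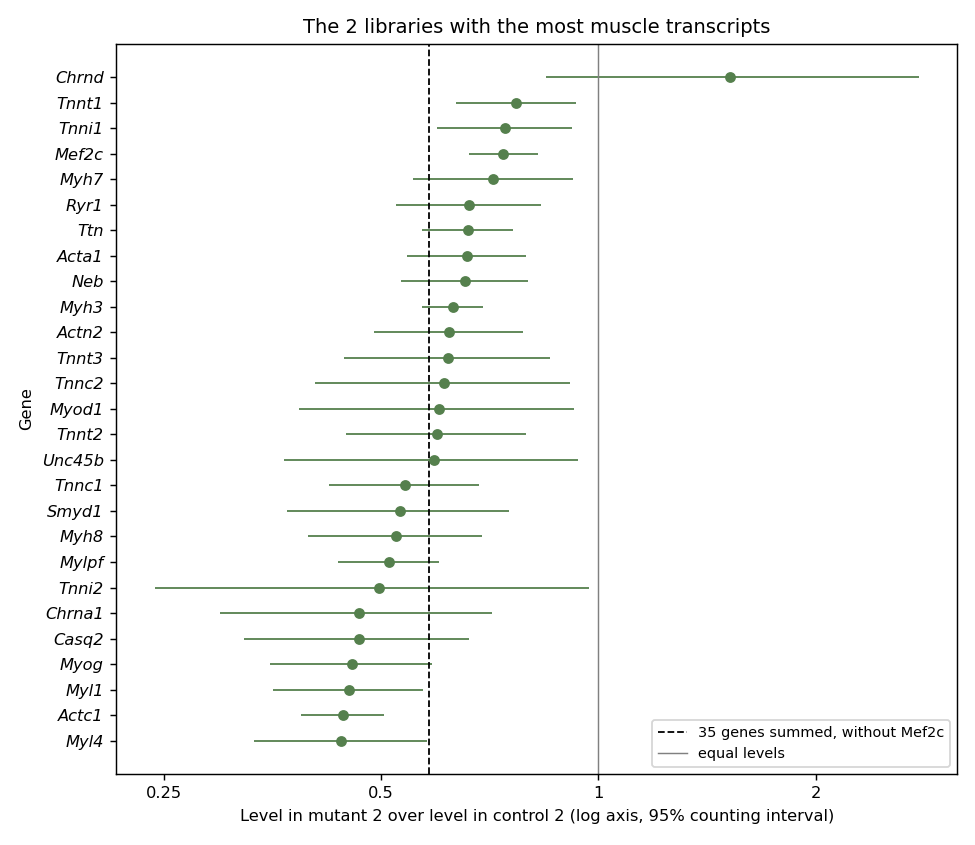
Level in mutant 2 over level in control 2 on a log axis for the 27 muscle genes with a mean of at least 10, with 95% counting intervals. The dashed line is the ratio of 0.583 for 35 genes summed without Mef2c, and the intervals of Actc1, Myl1 and Myl4 lie below it and those of Tnni1, Tnnt1, Mef2c and Chrnd above it.

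Mutant 3 and control 4 were the lowest libraries of their groups by the summed level. There, Myh3, Acta1, Myl1, Myog and Myod1 stood at 0 to 3.36 in mutant 3 and at 1.88 to 5.64 in control 4. Other members were still clearly detected in the same libraries. Mef2c stood at 421 in mutant 3 and 457 in control 4, and Ryr1 at 109 in mutant 3 and 135 in control 4. Tnni1 (59.4 in mutant 3, 59.2 in control 4), Actc1 (59.4 and 62.1), Tnnt1 (51.5 and 50.8) and Tnnt3 (40.3 and 33.8) had almost equal levels in this pair of libraries.

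The comparison of genotypes asked whether these genes differ between mutants and controls. The groups differ in Cre, in the null copy of Smo and in the loss of Smo from Foxd1 lineage cells, which cannot be told apart. In the fits with genotype as the sole term, none of the 27 tested members was called at an adjusted p under 0.05 by limma with Benjamini-Hochberg adjustment, where 0.57% of all 13692 tested genes were (0.446% lower and 0.124% higher in mutants). In the same fits none had an unadjusted p under 0.05 by limma or edgeR. DESeq2 gave no p-value, adjusted or not, for 6 members, and none of the others had an unadjusted p under 0.05. None was called by edgeR, which called 0.577% of all tested genes, or by DESeq2, which called 1.56%. Over all tested genes, 8.7% had an unadjusted p under 0.05 by limma, 8.76% by edgeR and 6.68% by DESeq2. For every tested member the range of the mutants overlapped that of the controls, while 5.31% of all tested genes had ranges that did not overlap. The other 9 members found, Ckm, Cacna1s, Chrng, Myf5, Myf6, Pax3, Pax7, Cav3 and Hspb3, had a mean under 10 and were not tested.

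Log2 fold changes, mutant over control, were taken after 1 was added to each normalised count, so those of weakly expressed genes are understated. They were negative for 25 of the 27 members and ranged from -1.23 for Myh8 to 0.15 for Chrnd, with a median of -0.55. Of all tested genes 48.1% had a negative value, with a median of 0.0037. The intervals were wide. For Myh3, at 194 ± 334 in mutants and 335 ± 518 in controls (SD, n = 4 each), the log2 fold change was -0.99 with a 95% interval of -4.45 to 2.47 (limma, adjusted p = 0.921). For Acta1, at 55.9 ± 92.9 in mutants and 92.0 ± 139 in controls, it was -1.04 with an interval of -4.40 to 2.32 (limma, adjusted p = 0.912). A difference of several fold in either direction lies within these intervals.

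Members with a steadier level gave narrower intervals. Mef2c, at 530 ± 74.7 in mutants and 632 ± 142 in controls, had a log2 fold change of -0.24 with an interval of -0.57 to 0.09 (limma, adjusted p = 0.764). Ryr1, at 109 ± 19.7 in mutants and 138 ± 43.5 in controls, had one of -0.31 with an interval of -0.75 to 0.14 (adjusted p = 0.775 by limma). For Chrnd, at 21.6 ± 7.70 in mutants and 18.8 ± 3.52 in controls, the value was 0.15 with an interval of -0.43 to 0.73. In the authors' deposited table all 36 members had an adjusted p of 1, and the lowest unadjusted p among them was 0.225. Few genes passed there at all, with 117 of the 19066 genes that had a p-value at an adjusted p under 0.05.

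**Figure D4:**
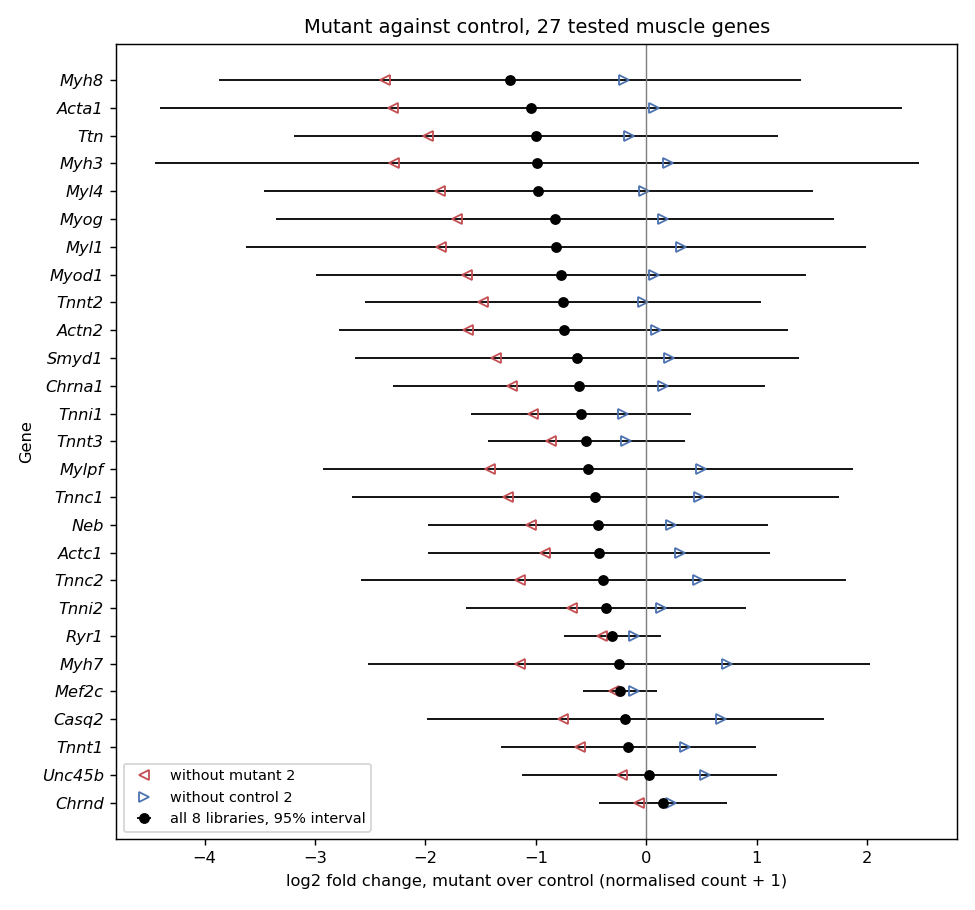
Log2 fold change of mutant over control for the 27 tested muscle genes, with 95% intervals from limma on all 8 libraries and the values without mutant 2 or without control 2. All 27 values are below 0 without mutant 2, while 19 of the 27 are above 0 without control 2, among them Myh3 and Acta1.

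The sign of the difference depended on single libraries. Without mutant 2 all 27 members had a negative log2 fold change, with a median of -1.21, and without control 2 the number fell to 8, with a median of 0.15. Without both libraries numbered 2 the median was -0.46, with 24 negative values. These libraries were left out with their high member levels known, so the shift of the median on leaving out 1 of them follows from that choice. No member was called in any of these 3 fits. Of all tested genes, 25 were called without mutant 2, 2 without both libraries numbered 2 and 31 without control 2. At an unadjusted p under 0.05 there were 4 members without mutant 2, 2 without both libraries numbered 2 and 0 without control 2. The shares of all tested genes at that threshold were 7.49%, 5.99% and 7.09% in the same order, all by limma.

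The spread between libraries of 1 genotype set the members apart from most genes. Within groups, the SD of log2(normalised count + 1) was 3.04 for Myh3, 2.94 for Acta1 and 2.44 for Myl1, with a median of 1.72 over the 27 tested members, against 0.11 over all tested genes. In 23 of the 27 it exceeded 0.860, the 99th percentile of all tested genes, and 19 of the 27 were among the 100 genes with the largest values. Tnnt3 (0.744), Chrnd (0.363), Ryr1 (0.357) and Mef2c (0.283) lay under that percentile. The members were chosen with earlier results of these data known, so their large spread may follow in part from that choice. The filter on the mean adds to this. Myod1 stood at 37.3 in mutant 2, 62.0 in control 2 and at most 11.1 elsewhere. Its mean outside these 2 libraries was under 10, so it passed the filter only through them. The same held for Myh8, Myh7, Tnnc2, Tnni2, Casq2, Chrna1 and Smyd1, and the counts above include them. The comparison with all tested genes is thus a description only.

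**Figure D5:**
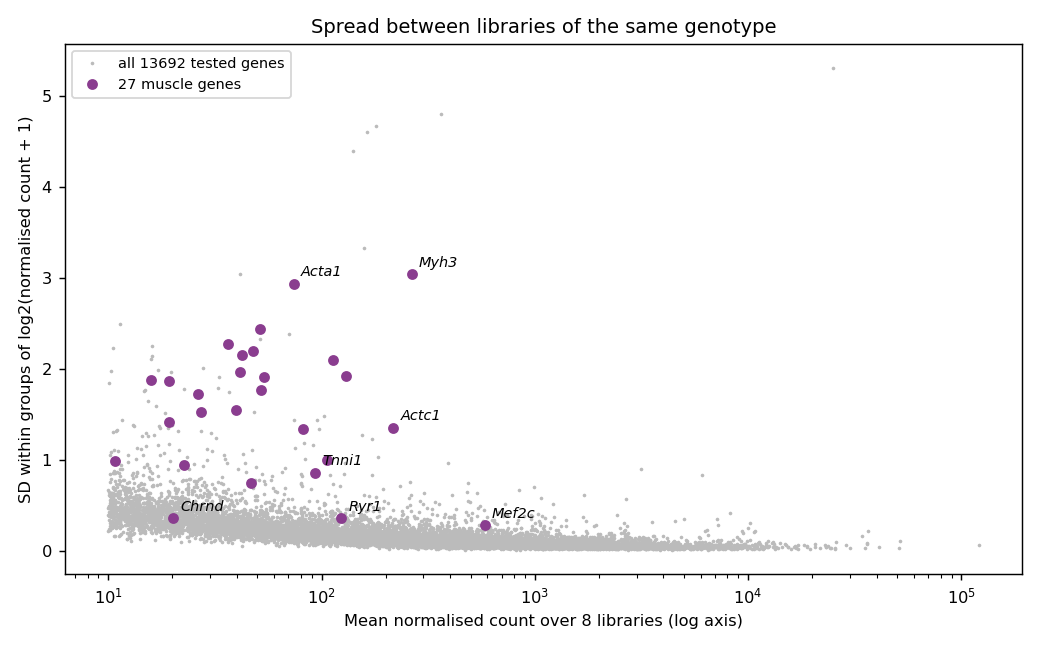
SD within groups of log2(normalised count + 1), vertical axis, against the mean normalised count over the 8 libraries, log axis, for all 13692 tested genes in grey and the 27 tested muscle genes in purple. Myh3 (3.04) and Acta1 (2.94) lie near the top, and Chrnd, Ryr1 and Mef2c lie close to the grey band.

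Genes outside the list with the same pattern were found by distance. For each gene the log2 level was centred over the 8 libraries, and its root mean square difference from the median centred profile of the tested members was taken. That profile ran from -1.29 in mutant 3 to 1.90 in mutant 2 among mutants, and from -1.23 in control 4 to 2.76 in control 2 among controls. A gene with no variation would lie at 1.39. The nearest genes outside the list were Ldb3, a Z-disc protein gene (0.257), Myom2, an M-band protein gene (0.400), Kbtbd10 (0.471), Synpo2l (0.486) and Myo18b, an unconventional myosin gene of muscle (0.513). Abca9, a lipid transporter family gene (0.525), Ablim3, an actin-binding protein gene (0.538), Thbs4, a matrix protein gene of tendon and muscle (0.545), Tceal7 (0.556) and Myom3, another M-band gene (0.574), followed. Ldb3, the nearest, had 3.82, 31.9, 3.36 and 5.37 in mutants 1 to 4, against 10.2, 41.3, 5.81 and 3.76 in controls 1 to 4. Of the 20 genes nearest to the profile 12 were members, led by Casq2 (0.275) and Neb (0.279). The profile was made from the tested members, so their nearness to it follows in part from that and is no evidence of a shared pattern. The measure counts amplitude as well as order, and Myh3 (1.44) and Acta1 (1.41), which varied more than the median member, lay farther from the profile than a gene with no variation.

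Rows under older symbols were also highest in control 2, followed by mutant 2 and then control 1. Tmem8c stood at 0, 25.6, 0 and 0 in mutants 1 to 4, against 6.80, 48.6, 0.969 and 1.88 in controls 1 to 4. Kbtbd10 had 12.4, 54.3, 7.84 and 15.04 in mutants 1 to 4, against 25.5, 84.8, 16.5 and 16.0 in controls 1 to 4.

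Another list of 61 skeletal muscle genes in the table gave a partly similar picture. Control 2 was highest for 38 of the 61 and was followed by mutant 2 for 32. Among the 29 tested genes of this list these counts were 17 and 14, against 14.8% and 2.15% of all tested genes. None of the 29 was called by limma, with a background of 0.57%. Its most abundant members did not follow Myh3. Des, the desmin gene, which smooth muscle also expresses, stood at 679, 880, 1031 and 858 in mutants 1 to 4, against 635, 675, 805 and 621 in controls 1 to 4. Eno3, a muscle enolase gene, lay between 501 and 619 in mutants and between 353 and 523 in controls, Dysf between 309 and 375 in mutants and between 327 and 399 in controls, and Actn3 between 195 and 335 in mutants and between 198 and 357 in controls. The adult myosin genes Myh1, Myh2 and Myh4, named here after their values were seen, reached at most 2.15 in mutants and 11.4 in controls.

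Markers of other tissues were read in the same libraries, and their part in the levels above was not tested. The 12 genes of heart muscle summed to 43.9, 36.2, 25.8 and 41.9 in mutants 1 to 4, against 57.0, 55.8, 35.8 and 32.9 in controls 1 to 4. Tnni3, the most abundant of them, ranged from 7.45 to 16.1 in mutants and from 10.3 to 16.2 in controls, highest in control 1. Myh6, the next, ranged from 4.48 to 11.7 in mutants and from 5.64 to 18.6 in controls, highest in control 2 and then mutant 2. The 12 smooth muscle genes summed to between 5559 and 5970 in mutants and between 5773 and 7389 in controls, highest in control 2. The 8 tendon and connective tissue genes summed to between 897 and 1027 in mutants, and to 1331, 1560, 825 and 484 in controls 1 to 4, so controls 1 and 2 were high here too. The 15 cartilage and bone genes lay between 2031 and 2323 in mutants and between 1771 and 2161 in controls, and the 12 nerve and neural crest genes between 381 and 455 in mutants and between 336 and 415 in controls. The 10 liver genes were highest in control 1, at 902, with 87.0 to 246 in mutants and 79.9 to 183 in the other controls. The 8 adrenal genes lay between 293 and 320 in mutants and between 302 and 340 in controls, and the 6 skin genes did not exceed 40.1. None of the tested genes of these 8 lists was called by limma, where 0.57% of all tested genes were. Only 1 heart, 2 skin, 3 adrenal, 4 liver, 4 nerve, 6 tendon, 9 cartilage and 10 smooth muscle genes were tested. These are too few, at that share, for the lack of calls to be read as a result. Some genes stand in more than 1 list, such as Des, Hand2, Myl2 and Myl3.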

How the data were processed

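Poly(A)-selected RNA of E13.5 kidneys was made into libraries with a TruSeq kit from Illumina, starting from 500 ng, per the labels' protocols. TopHat2 2.0.12, HTSeq and DESeq2 1.4.5 with the build mm10 (GRCm38) are named in the submitters' processing notes, while the sources used here do not name the annotation. The authors deposited 1 table of 23337 genes. Its signal is, in each library, the gene's read count after division by that library's size factor. All values (100%) were whole multiples of what 1 read was worth in their library, within 0.01 read, so each value could be turned back into whole reads. The libraries held 10288191 to 13494079 reads in genes. The authors also deposited, for each gene, the group means of that signal, a fold change as the ratio of these means and as its log2, and p-values before and after adjustment.

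The 13692 genes whose mean level reached 10 were tested on log2(value + 1) in R 4.3.3, using limma 3.58.1 with the trend option. Genotype was the sole term, and tests were two-sided with Benjamini-Hochberg adjustment over all of them and a threshold of 0.05. The recovered reads also went into edgeR 4.0.16 (quasi-likelihood test, TMM factors), which called 79 genes, and DESeq2 1.42.0, which called 214. The fits were tested on simulated data. Libraries were described singly. The fits without control 2, without both libraries numbered 2 and without controls 1 and 2 were planned with the high member levels of these libraries known. Other alternatives covered the pseudocount, the filter, TMM scaling, the sample number as a block and leaving out libraries.

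Values in all libraries are given for members with a mean of at least 50 and for the highest in each role, and for Myog, Chrna1 and the rows under older symbols outside this rule. Of other genes, the 10 nearest to the members' pattern and up to 4 of each list were to be named. The members and lists were chosen with earlier results of these data known. Exons of 9 members overlap those of another gene in GENCODE vM21. Plots used Python 3.11.15 and matplotlib 3.10.9.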

Additional observations from a re-analysis of the deposited data

Results flagged for a closer look

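In 41 of 58 groups of 4 libraries 1 library lay far from the other 3, by Dixon's test on normalised counts. That library was mutant 2 in 22 cases and control 2 in 19, and in every case the highest of its group. A chance value of about 2.9 holds only for normally distributed values, a condition not checked here, and for members picked without these data. It therefore cannot be set against the 41. Several members, such as Myod1, Myh8 and Chrna1, passed the filter on the mean only through mutant 2 and control 2. The groups include sums of the same members, and no rate over all tested genes was taken. Members were chosen with earlier results of these data known, so the count is a description only. The members share these libraries, so the cases are not independent.

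Summed over the members, mutant 2 had 4298 against 888 to 1278 in the other mutants, and control 2 had 7162 against 991 to 1935 in the other controls. Without Mef2c, mutant 2 had 3706 against 467 to 726, and control 2 had 6361 against 534 to 1275.

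In mutant 2 the thick filament genes stood apart, with 694 for Myh3, 86.3 for Myh8, 114 for Myh7, 249 for Mylpf, 109 for Myl1 and 82.0 for Myl4, against at most 49.4 in the other mutants. Thin filament genes did so with 195 for Acta1, 116 for Tnnc1, 43.7 for Tnnc2, 14.9 for Tnni2, 204 for Tnnt1, 84.1 for Tnnt2 and 171 for Neb, against at most 64.4. So did Ttn (324), Actn2 (125), Chrna1 (35.1), Chrnd (33.0), Myog (94.8), Myod1 (37.3) and Smyd1 (54.3), against at most 34.4 in the other mutants.

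In control 2 the values were 1105 for Myh3, 164 for Myh8, 159 for Myh7, 486 for Mylpf, 241 for Myl1 and 186 for Myl4, against at most 169 in the other controls. Thin filament genes stood apart with 784 for Actc1, 215 for Tnnc1, 141 for Tnnt2, 106 for Tnnt3 and 263 for Neb, against at most 157. So did Ttn (491), Actn2 (201), Casq2 (108), Chrna1 (75.5), Myog (208) and Myod1 (62.0), against at most 85.1 in the other controls.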

How the results depend on the processing

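The count of 0 called members was the same under every alternative but 1. The labels give mutants and controls the same sample numbers, and with the number as a replicate block 1 member was called, Tnni1 (log2 fold change -0.59, adjusted p = 0.0445 by limma), 8 members had an unadjusted p under 0.05 (11.2% of all tested genes had), and 232 genes were called in all, against 78 without it. Same-numbered libraries deviated together with r = 0.32, 0.29, 0.29 and 0.06 for numbers 1 to 4 across tested genes, which are not independent. Libraries numbered 1 to 3 were each closest to the library of their own number, while mutant 4 was closest to control 3 and control 4 to mutant 3. Over the tested members r was 0.10, 0.93, 0.40 and 0.04 for numbers 1 to 4, and 0.81 for mutant 3 with control 4. The labels do not say what the numbers mark, so whether the libraries are paired cannot be told. The fit without the number was kept as the main one, and its lack of called members holds for unpaired libraries only. Over all tested genes 214 were called by DESeq2, 2 without both libraries numbered 2 and 29 without controls 1 and 2. With 1 library left out, between 18 (without control 3) and 185 (without control 4) were called, and the count moved by more than 1.5 times for every library but mutant 4. The cause was not tested. Member sums moved by no more than their counting error under TMM scaling, and fell, as they must, with members left out.

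Directions of members reversed as follows. Unc45b was at -0.17 by edgeR and -0.18 by DESeq2, and Casq2 at 0.11 without both libraries numbered 2. Controls 1 and 2 had the highest member sums among controls, so leaving both out shifts log2 fold changes upwards by construction. Without controls 1 and 2, log2 fold changes were 1.23 for Myh3, 0.29 for Myh8, 0.87 for Myh7, 1.11 for Acta1, 0.63 for Actc1, 1.08 for Mylpf, 1.20 for Myl1, 0.63 for Myl4, 1.17 for Tnnc1, 1.17 for Tnnc2, 0.55 for Tnni2, 0.63 for Tnnt1, 0.24 for Tnnt2, 0.26 for Ttn, 0.41 for Neb, 0.29 for Actn2, 0.91 for Casq2, 0.43 for Chrna1, 0.72 for Myog, 0.55 for Myod1 and 0.84 for Smyd1. With 1 library left out, the range was -2.30 to 0.24 for Acta1, -0.92 to 0.31 for Actc1, -1.61 to 0.092 for Actn2, -0.75 to 0.67 for Casq2, -1.21 to 0.15 for Chrna1, -0.062 to 0.25 for Chrnd, -2.29 to 0.20 for Myh3, -1.15 to 0.73 for Myh7, -1.86 to 0.32 for Myl1, -1.41 to 0.50 for Mylpf, -1.63 to 0.066 for Myod1, -1.77 to 0.15 for Myog, -1.05 to 0.23 for Neb, -1.36 to 0.21 for Smyd1, -1.26 to 0.48 for Tnnc1, -1.27 to 0.47 for Tnnc2, -0.86 to 0.14 for Tnni2, -0.60 to 0.35 for Tnnt1 and -0.33 to 0.53 for Unc45b. Of these reversals 17 came without control 2, 7 without mutant 3, 2 without mutant 2 and 1 each without mutant 1, mutant 4, control 3 and control 4. Every other direction among the 27 members was the same under these alternatives. Depth limits members with a few reads, such as Pax3, Myf5 and Myf6.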
